A study of Mus musculus with 6 samples.

Results

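The genes described here are 53 genes of mitosis, chosen by name and function: kinases, cyclins, spindle checkpoint and kinetochore genes, kinesins, condensin and genes of cytokinesis. Earlier results of these data were known when they were chosen. All 53 were found by symbol among the 16000 genes of the count table, and all 53 passed the filter on low counts that left 11972 genes for testing. The data are RNA sequencing libraries of serum-starved NIH3T3 cells, a mouse fibroblast line long kept in culture. In 3 libraries the cells were labelled Rai16 KO (knockout), and in 3 they were wild type (WT). The comparison asked how transcript levels differ between the genotypes when serum is withdrawn. The labels name no allele and do not say whether the knockout libraries came from 1 clone or the libraries of a group from separate cultures, so each p-value reflects only how these libraries vary, and that variation may be technical.

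A dividing cell makes the machinery of mitosis late in its cycle, mainly in G2 and M phase. Cyclin-dependent kinase CDK1 with cyclins A and B drives entry into mitosis, and the Polo and Aurora kinases guide the spindle. Kinetochores tie the chromosomes to microtubules, and the spindle checkpoint holds the anaphase-promoting complex until every chromosome is attached. Separase then cuts cohesin, and kinesins and the cytokinesis proteins complete the division. In cells at rest, as after serum withdrawal, a repressor complex named DREAM binds the promoters of many of these genes at the CHR element (cell cycle genes homology region), and in dividing cells the MuvB core of that complex works with B-MYB and FOXM1. NF-Y, which binds the CCAAT box, is the other factor known for these promoters. In bulk RNA, more cells in mitosis and more RNA per cell cannot be told apart.

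The promoters of these genes share short sequence elements that the choice of genes did not use. RefSeq windows (build GRCm38.p6) running from 250 bases before to 50 bases after the annotated start were at hand for 44 of the 53 genes, in 47 windows. Both strands were searched for the letters TTTGAA, the CHR element, and for CCAAT, the NF-Y box. The CHR letters began within 50 bases of the start in 32 of 47 windows (68.1%), against 4.94% of the 32851 windows of all genes. Anywhere in the window they were found in 76.6% of the mitotic windows and in 17.9% of all windows. CCAAT was found in 76.6% of the mitotic windows and in 37.4% of all windows, and at least 2 copies in 51.1% of the mitotic and 11.7% of all windows. TTTGAA near the start together with CCAAT was found in 59.6% of the mitotic windows and in 2.08% of all windows. A match of one motif overlapped a match of the other in 1 mitotic window. A match of letters is a description and does not show that a factor binds there.

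**Figure D1:**
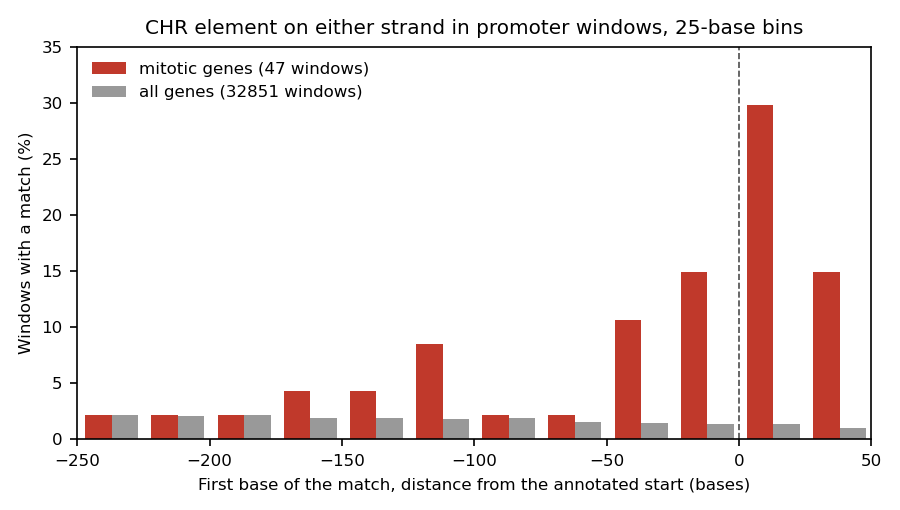
Share of promoter windows in which the letters of the CHR element begin in each 25-base bin, by distance from the annotated start (x axis, bases), for the 47 windows of mitotic genes and the 32851 windows of all genes (y axis, percent). The mitotic windows peak in the bin just after the start, at 29.8%, where all windows stand at 1.31%.

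The stretch from 80 bases before to 50 bases after the start is printed for 8 genes. Plk1, Ccnb2, Kif22 and Cdc20 are shown as genes whose transcripts were higher in knockout libraries and whose promoters hold the CHR letters near the start. Cenpf and Ttk hold the same letters, and their transcripts did not pass the test. Nuf2, the gene that was lower, and Birc5, a gene that was higher, hold neither motif in this stretch. Capitals mark TTTGAA and CCAAT or their reverse complements, TTCAAA and ATTGG, and each sequence reads from 5′ to 3′ on the strand of the gene. TTTGAA begins at position 31 in Plk1, 5 in Ccnb2, 3 in Cenpf and −18 in Cdc20, counting the annotated start as 1 with no position 0. On the reverse strand the match begins at −17 in Kif22 and at 8 in Ttk. The stretches lie on the plus strand at chr7:122159355-122159484 (Plk1), chr9:83834609-83834738 (Ttk) and chr11:117849157-117849286 (Birc5). Those on the minus strand lie at chr9:70421505-70421634 (Ccnb2), chr7:127042371-127042500 (Kif22), chr4:118437294-118437423 (Cdc20), chr1:189688037-189688166 (Cenpf) and chr1:169531415-169531544 (Nuf2).
Plk1: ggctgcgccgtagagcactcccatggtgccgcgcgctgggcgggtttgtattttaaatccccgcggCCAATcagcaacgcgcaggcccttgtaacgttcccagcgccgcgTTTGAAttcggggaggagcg
Ccnb2: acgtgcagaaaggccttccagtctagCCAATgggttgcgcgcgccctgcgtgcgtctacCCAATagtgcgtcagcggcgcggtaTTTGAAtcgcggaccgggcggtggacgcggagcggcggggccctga
Kif22: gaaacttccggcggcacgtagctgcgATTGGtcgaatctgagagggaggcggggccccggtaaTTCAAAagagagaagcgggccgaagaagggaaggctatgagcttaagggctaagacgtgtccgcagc
Cdc20: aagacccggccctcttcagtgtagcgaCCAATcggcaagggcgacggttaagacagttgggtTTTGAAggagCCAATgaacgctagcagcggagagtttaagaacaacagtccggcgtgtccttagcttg
Cenpf: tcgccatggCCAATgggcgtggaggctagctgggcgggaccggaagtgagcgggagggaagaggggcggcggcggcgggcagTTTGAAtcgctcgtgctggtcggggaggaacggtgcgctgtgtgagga
Ttk: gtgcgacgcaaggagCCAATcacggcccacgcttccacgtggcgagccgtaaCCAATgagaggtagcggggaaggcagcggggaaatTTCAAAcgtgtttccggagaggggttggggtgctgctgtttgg
Nuf2: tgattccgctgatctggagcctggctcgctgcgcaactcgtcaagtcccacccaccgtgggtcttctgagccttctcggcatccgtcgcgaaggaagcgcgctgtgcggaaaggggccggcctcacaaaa
Birc5: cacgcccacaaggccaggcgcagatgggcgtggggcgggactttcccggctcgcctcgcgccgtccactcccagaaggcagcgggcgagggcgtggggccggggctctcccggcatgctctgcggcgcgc

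The fold changes of mitotic genes with and without the CHR letters near the start overlapped. Of the 30 genes with TTTGAA within 50 bases of a start, 19 were higher and 0 lower, with a median log2 fold change of 0.38 and a range from −0.21 to 1.05. Of the 14 genes with a window but without the letters there, 12 were higher and 1 lower, with a median of 0.54 and a range from −0.40 to 0.88. Of all genes tested, 30.5% were higher and 29.2% lower. No such counts were made for all genes with and without the letters. These counts are a description, with no test of the difference.

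Total counts ran from 16741607 to 18368760 per library. Fibroblast markers had a summed FPKM, a level per gene length and library total, of 6230 to 6470 in knockout and 5810 to 5950 in wild-type libraries, with all 9 detected. The members of that list went both ways, with 4 higher and 3 lower, from Thy1 at a log2 fold change of 0.90 ± 0.057 to Col3a1 at −1.64 ± 0.055 (SE). The targeted gene, listed as Fam160b2, averaged 21.9 ± 0.395 CPM (counts scaled to a common library total) in knockout and 23.8 ± 1.49 CPM in wild type (SD, n = 3 each). Its log2 fold change was −0.12 (95% interval −0.29 to 0.05, adjusted p = 0.184 in edgeR's quasi-likelihood test), so its transcript level gives no check of the genotype label. Markers of other cell types were low but differed between groups. The 4 epithelial markers analysed summed to 2.18 to 2.79 FPKM in knockout and 0.61 to 0.883 FPKM in wild type, the 5 leukocyte markers to 4.16 to 4.73 FPKM in knockout and 2.80 to 3.10 FPKM in wild type. The 5 endothelial markers summed to 0.357 to 1.07 FPKM in knockout and 0.106 to 0.182 FPKM in wild type. The 4 neural markers analysed summed to 1.09 to 1.75 FPKM in knockout and 1.87 to 2.31 FPKM in wild type. The markers with enough counts to be tested in the first 3 of these lists were all higher in knockout, namely Krt8 (log2 fold change 2.04 ± 0.22), Cd68 (0.51 ± 0.13), Csf1r (2.20 ± 0.38) and Cdh5 (3.0 ± 0.55, SE). Cdh1 stayed at or under 0.168 FPKM in every library and Ptprc at or under 0.0487 FPKM. Pecam1 had 0.049, 0.248 and 0.253 FPKM in knockout replicates 1, 2 and 3, against 0.0518, 0.0538 and 0.0515 FPKM in wild-type replicates 1, 2 and 3. Their part in the results was not tested.

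Knockout replicate 2 stood apart from the rest. The muscle creatine kinase gene Ckm, a marker of skeletal muscle, had 405 counts in it and 0 in the other 5 libraries together. The 4 muscle markers analysed summed to at most 17.3 FPKM in knockout, reached in that library, and to 0.0642 FPKM in the lowest knockout library, against 0.169 to 0.273 FPKM in wild type. Acta1, a skeletal muscle actin gene named after its values were seen, had 4, 1071 and 8 counts in knockout replicates 1, 2 and 3, and 2, 5 and 2 counts in wild-type replicates 1, 2 and 3. Counts of knockout replicate 2 differed from those of replicates 1 and 3 by a chi-square of 28.6 and 26.5 per degree of freedom, while replicates 1 and 3 differed by 1.72 and the wild-type pairs by 1.90 to 2.25.

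The same library also differed from its group by transcript length. Over the 53 mitotic genes, the log2 ratio of knockout replicate 2 to the mean of replicates 1 and 3 had a Spearman correlation of −0.78 with length (n = 53 genes of the same libraries, a description). Over 9287 well-counted genes it was −0.77, and for the wild-type libraries the same value lay between −0.19 and 0.19. Length here is derived from the deposited counts and FPKM and is known up to a common factor. Among the 10 shortest mitotic genes (931 to 1973 bases), 9 were higher in knockout replicate 2 than in the other knockout libraries. Among the 10 longest (5638 to 11365 bases), 9 were lower in it. Fold changes and counts of the mitotic genes are given also without that library where it changed a call or a direction or moved the value by over 1.5 times, and for some smaller moves.

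**Figure D2:**
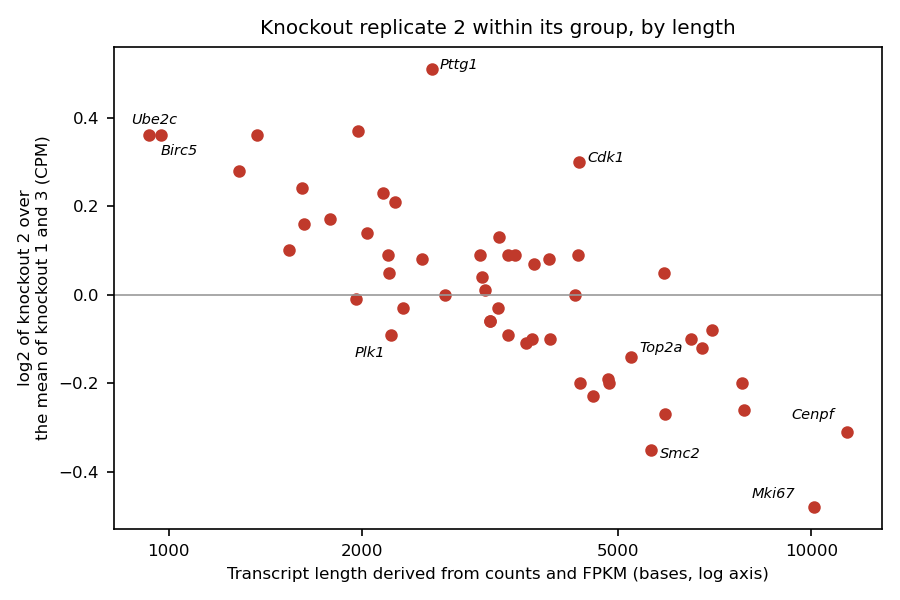
Log2 ratio of the CPM in knockout replicate 2 to the mean of knockout replicates 1 and 3 (y axis) against derived transcript length (x axis, bases, log scale), with 1 point for each of the 53 mitotic genes. Short genes such as Ube2c (0.36) lie above 0 and long genes such as Mki67 (−0.48) below it.

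Mitotic transcripts were mostly higher in knockout libraries, by less than 2-fold. Of the 53 genes, 37 were higher (69.8%), where 30.5% of all genes tested were. Only 1 gene, Nuf2, was lower (1.89%), where 29.2% of all genes were, and 15 did not pass. Genes were called at an adjusted p under 0.05 (edgeR's quasi-likelihood test, Benjamini-Hochberg over all genes tested). The median log2 fold change of knockout over wild type was 0.44, or 1.35-fold, against 0.003 over all genes tested. As the genes were chosen with earlier results known, these shares and medians are a description. A change of 2-fold or more was called for 1 gene, Plk1 (4.32% of all genes were called that much higher and 6.53% that much lower).

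The separation was visible library by library. All 3 knockout libraries lay above all 3 wild-type libraries for 38 of the 53 genes, where 34.1% of all genes did, and below them for 4 genes, where 33.5% of all genes did. In either direction the groups did not overlap for 67.6% of all genes. The median gene stood 0.46, 0.39 and 0.40 (log2 CPM) above its wild-type mean in knockout replicates 1, 2 and 3, and at 0.02, −0.02 and 0.01 in wild-type replicates 1, 2 and 3. Together the genes took 0.477%, 0.459% and 0.462% of the counts in knockout replicates 1, 2 and 3, against 0.355%, 0.348% and 0.356% in wild-type replicates 1, 2 and 3. Without knockout replicate 2, 39 genes were higher and 2 lower, where 36.0% and 35.1% of all genes were.

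Serum-starved wild-type cells still held these transcripts. Per length, the median gene had 21.6 FPKM in knockout and 14.9 FPKM in wild type, while the median of all genes tested was 9.90 FPKM in knockout and 9.96 FPKM in wild type. Top2a, the topoisomerase that untangles sister chromatids, was the most abundant in both groups, at 106 ± 5.74 FPKM in knockout and 75.1 ± 0.341 FPKM in wild type (SD, n = 3 each). Ube2c followed at 88.5 ± 13.6 FPKM in knockout and 47.5 ± 1.32 FPKM in wild type. The lowest was the kinesin gene Kif18a, at 5.85 ± 0.178 FPKM in knockout and 4.77 ± 0.447 FPKM in wild type.

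**Figure D3:**
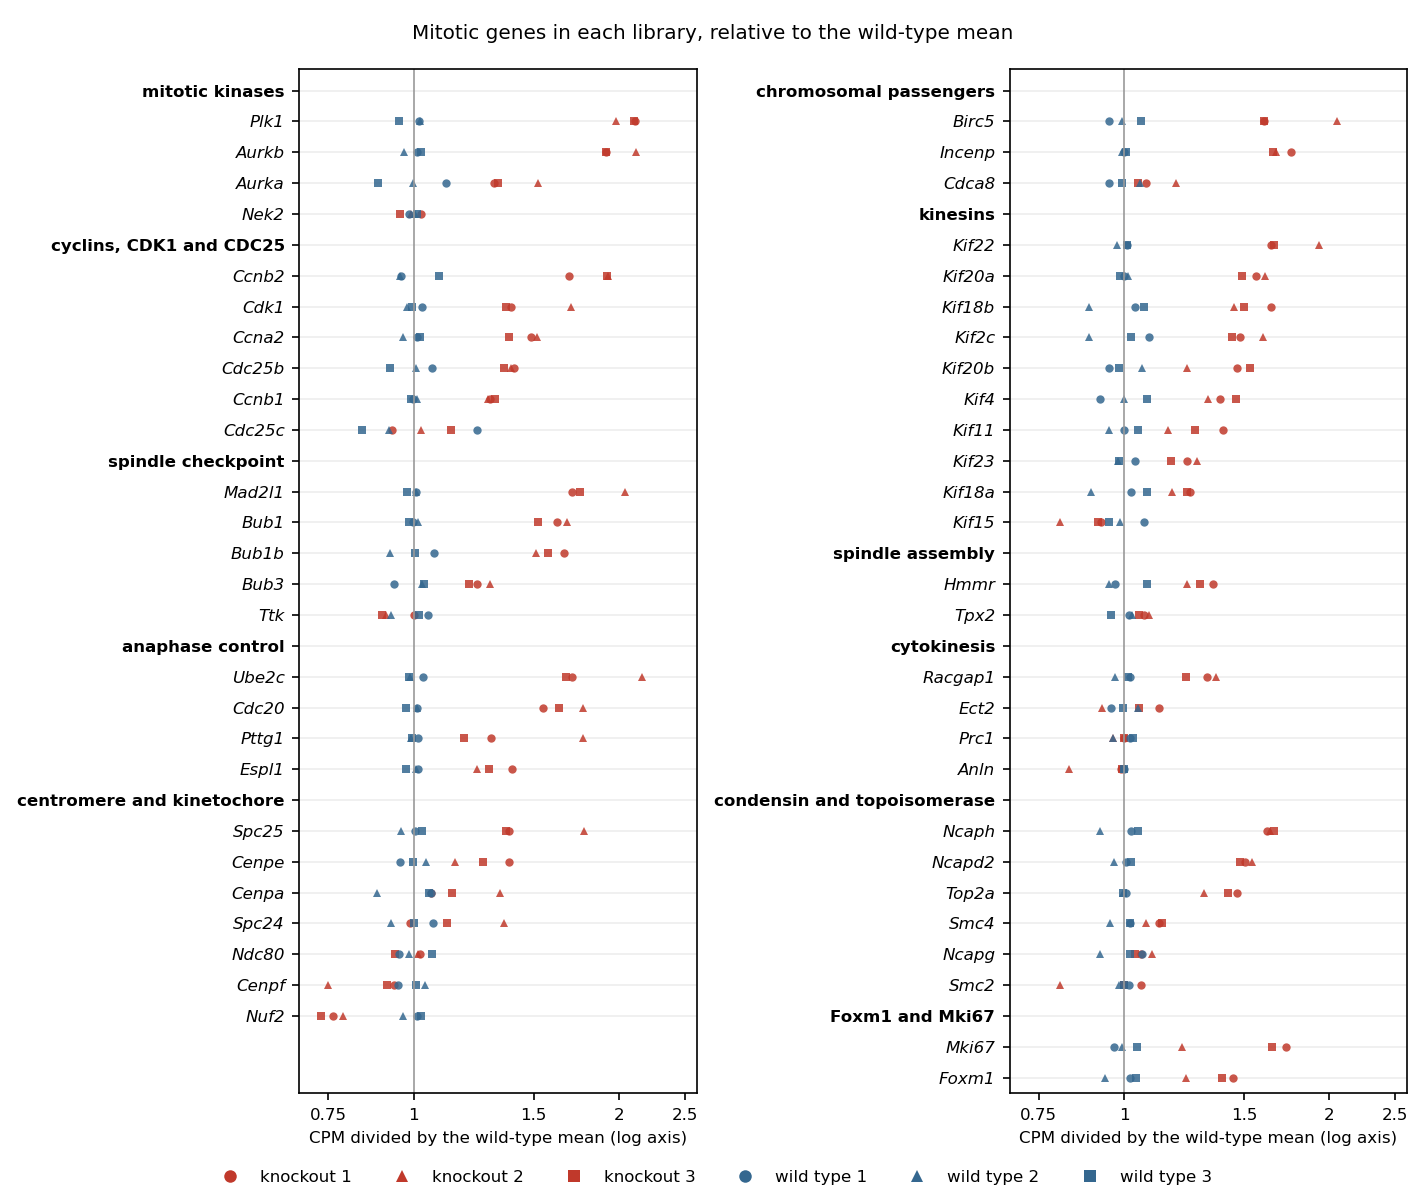
CPM of each mitotic gene in each of the 6 libraries divided by its wild-type mean (x axis, log scale), with genes grouped by function and ordered by fold change within a function; red marks knockout and blue wild-type libraries, and the shape marks the replicate. For 38 genes every red point lies to the right of every blue point, and for Nuf2, Cenpf, Kif15 and Anln every red point lies to the left.

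The counts by function that follow stand beside 30.5% higher and 29.2% lower among all genes tested. Among the 4 mitotic kinase genes, 3 were higher and 1 did not pass. Plk1, the Polo-like kinase of mitotic entry and spindle assembly, had 56.4, 52.9 and 56.2 CPM in knockout replicates 1, 2 and 3, against 27.2, 27.3 and 25.4 CPM in wild-type replicates 1, 2 and 3. Every knockout library thus held about the same level, far above every wild-type library, with 2.07-fold more in knockout (log2 1.05 ± 0.064 SE, adjusted p = 2.03e-06, edgeR). Aurkb, the Aurora kinase of the chromosomal passenger complex, rose by 0.99 ± 0.067 on the log2 scale, to 54.7 ± 3.16 CPM in knockout against 27.6 ± 0.825 CPM in wild type (SD, n = 3 each). Aurka, the Aurora kinase of the spindle poles, rose by 0.47 ± 0.096. Nek2, a kinase that separates the centrosomes, had 33.4, 32.3 and 31.1 CPM in knockout replicates 1, 2 and 3 and 32.1, 32.7 and 33.0 CPM in wild-type replicates 1, 2 and 3. The groups overlapped for Nek2, with a log2 fold change of −0.01 (95% interval −0.16 to 0.13).

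Of the 6 genes for cyclins, CDK1 and the CDC25 phosphatases, 5 were higher. Ccnb2, a B-type cyclin, had 14.1, 16.1 and 16.0 CPM in knockout replicates 1, 2 and 3, against 7.98, 7.97 and 9.08 CPM in wild-type replicates 1, 2 and 3. The groups did not overlap, and the log2 change was 0.88 ± 0.10 (SE, adjusted p = 0.000101, edgeR). Its partner kinase gene Cdk1 rose by 0.57 ± 0.087 on the log2 scale (0.46 without knockout replicate 2), to 106 ± 13.3 CPM in knockout against 71.7 ± 1.88 CPM in wild type (SD, n = 3 each). Ccna2, the A-type cyclin gene, rose by 0.54 ± 0.061 and Ccnb1, the main mitotic cyclin gene, by 0.38 ± 0.053. Cdc25b, a phosphatase that activates CDK1, rose by 0.47 ± 0.066. The related phosphatase gene Cdc25c had 10.5, 11.6 and 12.8 CPM in knockout replicates 1, 2 and 3 and 14.0, 10.4 and 9.48 CPM in wild-type replicates 1, 2 and 3. Wild-type replicate 1 was its highest library and wild-type replicate 3 its lowest, and the log2 fold change was 0.04 (95% interval −0.31 to 0.38). Per length, Ccna2 made up 51.8% ± 1.7 of the summed FPKM of the 3 cyclins in knockout and 51.0% ± 0.74 in wild type (SD, n = 3 each), and Ccnb2 12.8% ± 0.96 in knockout and 9.94% ± 0.62 in wild type.

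Of the 5 genes of the spindle checkpoint, 4 were higher. Mad2l1, whose product MAD2 holds back the activator CDC20, had 57.8, 68.9 and 59.2 CPM in knockout replicates 1, 2 and 3, against 34.1, 34.1 and 33.1 CPM in wild-type replicates 1, 2 and 3. All knockout libraries stood above all wild-type libraries, with replicate 2 highest, and the log2 change was 0.88 ± 0.078 (SE, adjusted p = 2e-05, edgeR; 0.79 without knockout replicate 2). The checkpoint kinase gene Bub1 rose by 0.69 ± 0.060 on the log2 scale and Bub1b, which encodes BUBR1, by 0.66 ± 0.071. Bub3, the partner of both proteins, rose by 0.32 ± 0.063, to 99.1 ± 3.73 CPM in knockout against 79.5 ± 4.41 CPM in wild type (SD, n = 3 each). Ttk, the checkpoint kinase also named MPS1, had 25.9, 23.6 and 23.3 CPM in knockout replicates 1, 2 and 3 and 27.2, 24.0 and 26.4 CPM in wild-type replicates 1, 2 and 3. The groups overlapped for Ttk, at a log2 fold change of −0.09 (95% interval −0.27 to 0.09).

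All 4 genes of anaphase control were higher. Ube2c, the ubiquitin-conjugating enzyme of the anaphase-promoting complex, had 75.8, 96.1 and 74.3 CPM in knockout replicates 1, 2 and 3, against 45.9, 43.8 and 43.7 CPM in wild-type replicates 1, 2 and 3. Knockout replicate 2 was well above the other knockout libraries, and the log2 change was 0.88 ± 0.099 (SE, adjusted p = 7.86e-05, edgeR), or 0.76 without it. Exons of Ube2c overlap those of Tnnc2, a muscle troponin gene on the other strand, which had 131 counts in knockout replicate 2 and at most 1 count in any other library. The library kit marks the strand, but no source used here says whether the counting kept strands apart. Cdc20, the activator of the same complex, rose by 0.72 ± 0.066 on the log2 scale. Pttg1, whose product securin restrains separase, rose by 0.50 ± 0.14, with 34.2, 46.6 and 31.2 CPM in knockout replicates 1, 2 and 3 and 26.7, 26.1 and 26.2 CPM in wild-type replicates 1, 2 and 3. The change of Pttg1 was 0.31 without knockout replicate 2, its highest library. Espl1, the separase gene, had 68.8, 61.0 and 63.7 CPM in knockout replicates 1, 2 and 3, against 50.1, 49.7 and 48.1 CPM in wild-type replicates 1, 2 and 3, a rise of 0.39 ± 0.063.

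Of the 7 centromere and kinetochore genes, 2 were higher, 1 was lower and 4 did not pass. The 28.6% that were higher are close to the 30.5% of all genes tested. Without knockout replicate 2, 3 were higher and 2 lower, and their median log2 fold change was 0.07, against 0.21 with it. Spc25, a subunit of the NDC80 complex that grips microtubules, had 23.3, 30.0 and 23.1 CPM in knockout replicates 1, 2 and 3, against 17.0, 16.2 and 17.4 CPM in wild-type replicates 1, 2 and 3. Its log2 change was 0.59 ± 0.11 (SE, adjusted p = 0.00162, edgeR), or 0.46 without knockout replicate 2, where it was highest. Nuf2, a subunit of the same complex, had 34.6, 35.9 and 33.3 CPM in knockout replicates 1, 2 and 3, against 46.0, 43.9 and 46.6 CPM in wild-type replicates 1, 2 and 3. Every knockout library was below every wild-type library, and Nuf2 fell by 0.40 ± 0.062 on the log2 scale (adjusted p = 0.000563, edgeR). The other subunit genes of the complex did not pass. Ndc80 had 44.6, 44.3 and 41.0 CPM in knockout replicates 1, 2 and 3 and 41.6, 43.0 and 46.5 CPM in wild-type replicates 1, 2 and 3. Spc24 had 9.99, 13.7 and 11.3 CPM in knockout replicates 1, 2 and 3 and 10.8, 9.35 and 10.1 CPM in wild-type replicates 1, 2 and 3. The groups overlapped for both, with log2 fold changes of −0.01 (95% interval −0.17 to 0.14) for Ndc80 and 0.21 (−0.09 to 0.50) for Spc24. The value of Spc24 was 0.07 without knockout replicate 2, its highest library, and 0.31 without knockout replicate 1. Ndc80 stood at −0.03 without knockout replicate 2.

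The 4 transcripts of the NDC80 complex stood in different proportions. Per length, Nuf2 made up 25.4% ± 1.0 of their summed FPKM in knockout and 33.9% ± 0.43 in wild type (SD, n = 3 each), and Spc25 23.4% ± 1.8 in knockout and 15.8% ± 0.14 in wild type. Ndc80 held 35.9% ± 2.2 in knockout and 36.7% ± 1.4 in wild type, and Spc24 15.4% ± 1.5 in knockout and 13.6% ± 0.88 in wild type. With 3 libraries a group an exact permutation test cannot go below a p of 0.10, and none was run on these shares.

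Cenpe, a kinesin of the kinetochore, rose by 0.34 ± 0.076 on the log2 scale, to 121 ± 10.7 CPM in knockout against 95.8 ± 4.43 CPM in wild type (SD, n = 3 each). Cenpa, the histone variant that marks centromeres, had 48.0, 60.6 and 51.6 CPM in knockout replicates 1, 2 and 3 and 48.1, 40.1 and 47.7 CPM in wild-type replicates 1, 2 and 3. Cenpf, a large protein of the outer kinetochore, had 86.2, 68.8 and 84.2 CPM in knockout replicates 1, 2 and 3 and 87.4, 95.7 and 92.9 CPM in wild-type replicates 1, 2 and 3. The log2 fold change was 0.24 (95% interval 0.00 to 0.47, adjusted p = 0.0744, edgeR) for Cenpa and −0.21 (−0.41 to −0.01, adjusted p = 0.0723) for Cenpf. Without knockout replicate 2, an extreme library for both, Cenpa passed at 0.14 (adjusted p = 0.045) and Cenpf at −0.11 (adjusted p = 0.0276). Without knockout replicate 1 Cenpa passed at 0.31 and Cenpf at −0.26. With an offset for gene length, chosen after seeing the data, neither passed. Cenpa then stood at 0.11 (adjusted p = 0.166, edgeR) and Cenpf at −0.02 (adjusted p = 0.694, edgeR).

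Of the 3 chromosomal passenger genes listed beside Aurkb, 2 were higher. Birc5, which encodes survivin, had 46.3, 59.3 and 46.3 CPM in knockout replicates 1, 2 and 3, against 27.5, 28.7 and 30.6 CPM in wild-type replicates 1, 2 and 3. The groups were far apart, with a log2 change of 0.81 ± 0.11 (SE, adjusted p = 0.000192, edgeR), or 0.68 without knockout replicate 2. Incenp, the scaffold that activates Aurora B, rose by 0.76 ± 0.055 on the log2 scale, to 119 ± 3.83 CPM in knockout against 70.1 ± 0.444 CPM in wild type (SD, n = 3 each). Cdca8, the gene of the subunit borealin, had 45.3, 50.1 and 44.1 CPM in knockout replicates 1, 2 and 3 and 39.9, 44.4 and 41.7 CPM in wild-type replicates 1, 2 and 3. The groups overlapped narrowly for Cdca8, and its log2 fold change was 0.15 (95% interval −0.02 to 0.31), or 0.09 without knockout replicate 2. Per length, Cdca8 made up 19.8% ± 0.14 of the summed FPKM of the 4 passenger transcripts in knockout and 28.5% ± 1.2 in wild type (SD, n = 3 each).

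Of the 10 kinesin genes, 9 were higher and 0 lower, with a median log2 fold change of 0.49. Kif22, the chromosome-arm motor KID, had 43.7, 51.3 and 44.1 CPM in knockout replicates 1, 2 and 3, against 26.9, 26.0 and 26.9 CPM in wild-type replicates 1, 2 and 3. The groups did not overlap, and the log2 change was 0.80 ± 0.079 (SE, adjusted p = 3.6e-05, edgeR). Kif20a, a motor of the central spindle, rose by 0.64 ± 0.056 on the log2 scale, Kif18b, which trims the plus ends of astral microtubules, by 0.62 ± 0.089, and Kif2c, a microtubule depolymerase at centromeres, by 0.59 ± 0.083. Kif20b rose by 0.50 ± 0.087 and the chromokinesin gene Kif4 by 0.47 ± 0.076. Kif11, the motor that pushes spindle poles apart, rose by 0.35 ± 0.078 and Kif23, the motor of centralspindlin, by 0.30 ± 0.060. Kif18a, which dampens chromosome movements, rose least, by 0.28 ± 0.090 (adjusted p = 0.0229, edgeR), and did not pass in DESeq2 or when knockout replicate 1 or 3 or wild-type replicate 1 or 2 was left out (adjusted p up to 0.0933). Kif15, a motor that backs up Kif11, had 31.3, 27.2 and 31.0 CPM in knockout replicates 1, 2 and 3 and 36.1, 33.3 and 32.1 CPM in wild-type replicates 1, 2 and 3. Its knockout libraries lay below its wild-type libraries without passing the test (log2 fold change −0.18, 95% interval −0.36 to 0.00, and −0.12 without knockout replicate 2).

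The spindle assembly genes split. Hmmr, a microtubule-binding protein of the spindle, had 68.6, 62.8 and 65.6 CPM in knockout replicates 1, 2 and 3, against 49.2, 48.3 and 54.9 CPM in wild-type replicates 1, 2 and 3. It was higher in each knockout library and rose by 0.37 ± 0.069 on the log2 scale (SE, adjusted p = 0.00156, edgeR). Tpx2, the activator of Aurora A, had 124, 126 and 122 CPM in knockout replicates 1, 2 and 3 and 118, 119 and 111 CPM in wild-type replicates 1, 2 and 3. The knockout libraries lay just above the wild-type ones, and the log2 fold change of 0.10 (95% interval −0.03 to 0.22) did not pass.

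Of the 4 cytokinesis genes, 1 was higher and 0 lower, with a median log2 fold change of 0.02. That share of 25% is near the 30.5% of all genes tested, and without knockout replicate 2 it was 2 of 4. Racgap1, the regulator that pairs with Kif23 in centralspindlin, had 132, 136 and 123 CPM in knockout replicates 1, 2 and 3, against 102, 96.9 and 101 CPM in wild-type replicates 1, 2 and 3. It was higher in all knockout libraries, by 0.38 ± 0.060 on the log2 scale (SE, adjusted p = 0.000593, edgeR). Prc1, which bundles the microtubules of the midzone, had 137, 132 and 137 CPM in knockout replicates 1, 2 and 3 and 140, 132 and 141 CPM in wild-type replicates 1, 2 and 3. Ect2, which activates RhoA at the cleavage site, had 57.6, 47.5 and 53.8 CPM in knockout replicates 1, 2 and 3 and 48.9, 53.5 and 50.9 CPM in wild-type replicates 1, 2 and 3. The groups overlapped for both genes, with log2 fold changes of −0.02 (95% interval −0.15 to 0.11) for Prc1 and 0.05 (−0.13 to 0.23) for Ect2. Without knockout replicate 2, its lowest library, Ect2 passed at 0.13 (adjusted p = 0.0355, edgeR). With an offset for gene length, chosen after seeing the data, Ect2 did not pass, at 0.07 (adjusted p = 0.357, edgeR). Prc1 stood at 0 without knockout replicate 2. Anln, the scaffold of the contractile ring, had 180, 151 and 181 CPM in knockout replicates 1, 2 and 3 and 182 CPM in each wild-type replicate. Only knockout replicate 2 stood clearly away from the others, and the log2 fold change of Anln was −0.09 (95% interval −0.27 to 0.08), or −0.01 without that library.

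Of the 5 genes of condensin I, the ring that compacts chromosomes, 3 were higher and 2 did not pass. Ncaph, the kleisin that closes the ring, had 52.6, 53.2 and 53.9 CPM in knockout replicates 1, 2 and 3, against 33.3, 30.0 and 34.1 CPM in wild-type replicates 1, 2 and 3. The groups were far apart, at a log2 change of 0.71 ± 0.066 (SE, adjusted p = 2.54e-05, edgeR). Ncapd2, a HEAT-repeat subunit, rose by 0.59 ± 0.055 on the log2 scale. The ATPase gene Smc4 passed by little, at 0.15 ± 0.057 (adjusted p = 0.0418), and did not pass in 10 of 15 alternative settings, leaving out any library other than knockout replicate 2 among them (adjusted p up to 0.177). Without knockout replicate 2 Smc4 stood at 0.18 (adjusted p = 4.24e-06, edgeR). With an offset for gene length, chosen after seeing the data, it stood at 0.26 (adjusted p = 0.000452, edgeR). Smc2, its partner ATPase, had 69.6, 53.0 and 65.8 CPM in knockout replicates 1, 2 and 3 and 67.0, 64.6 and 65.7 CPM in wild-type replicates 1, 2 and 3. The other HEAT-repeat gene, Ncapg, had 50, 51.9 and 49.0 CPM in knockout replicates 1, 2 and 3 and 50.1, 43.5 and 48.1 CPM in wild-type replicates 1, 2 and 3. The groups overlapped for both, with log2 fold changes of −0.07 (95% interval −0.28 to 0.15) for Smc2 and 0.09 (−0.06 to 0.25) for Ncapg. Without knockout replicate 2, its lowest library, Smc2 stood at 0.04 (adjusted p = 0.437, edgeR). Per length, Ncaph made up 20.2% ± 0.45 of the summed FPKM of the 5 condensin I transcripts in knockout and 15.2% ± 0.40 in wild type (SD, n = 3 each), and Smc2 11.4% ± 1.4 in knockout and 14.7% ± 0.42 in wild type. Top2a rose by 0.49 ± 0.060 on the log2 scale (adjusted p = 0.00014, edgeR).

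The transcription factor gene Foxm1, a driver of G2 and M phase genes, had 108, 92.3 and 104 CPM in knockout replicates 1, 2 and 3, against 76.4, 70.1 and 77.9 CPM in wild-type replicates 1, 2 and 3. Mki67, the gene of the proliferation antigen Ki-67, had 417, 293 and 397 CPM in knockout replicates 1, 2 and 3, against 233, 239 and 252 CPM in wild-type replicates 1, 2 and 3. Both were higher in every knockout library, with knockout replicate 2 the lowest of them. Foxm1 rose by 0.44 ± 0.075 and Mki67 by 0.61 ± 0.12 on the log2 scale (SE, adjusted p = 0.000944 and 0.0019, edgeR), or by 0.50 and 0.76 without knockout replicate 2.

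**Figure D4:**
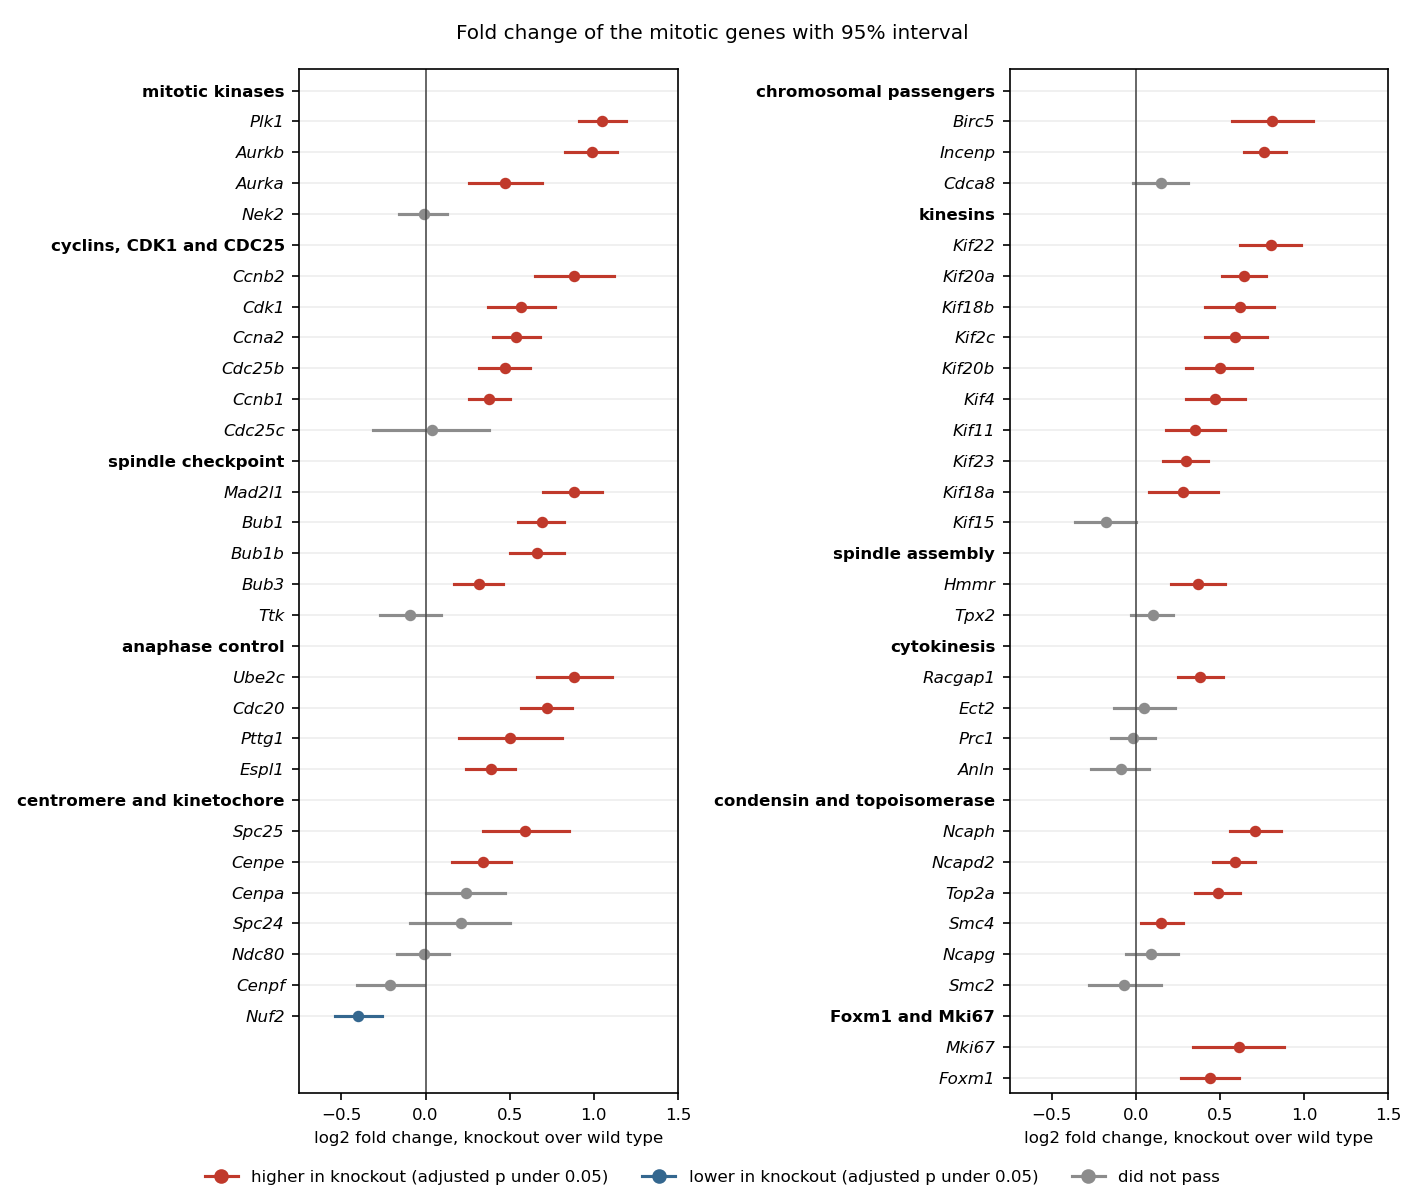
Log2 fold change of knockout over wild type with its 95% interval (x axis) for the 53 mitotic genes, grouped by function and ordered by fold change within a function. Red genes were higher, the blue gene was lower and grey genes did not pass; values run from −0.40 (Nuf2) to 1.05 (Plk1).

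The mitotic genes varied with the chromosome region in which they lie. For each gene, the 10 nearest tested genes on either side were taken in the order of the RefSeq table (GRCm38.p6), and the median log2 fold change of these 20 neighbours ran from −0.61 (Cenpf) to 0.47 (Aurkb). Member and neighbour values had a Spearman correlation of 0.57 over the 53 genes, a description over genes that share libraries and, in part, neighbours. Where the neighbours' median was above 0, 27 of 31 mitotic genes were higher, and where it was below 0, 10 of 22 were. In 47 of 53 cases the mitotic gene still stood above its neighbours, by a median of 0.40 over all 53. Neighbours were taken for the mitotic genes only, so these values have no counterpart over all genes tested. Whether other genes vary with their neighbours in the same way was not tested.

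Nek2 and Cenpf lay among neighbours with medians of −0.55 and −0.61, of which 17 and 19 of 20 were lower in knockout. Ndc80 lay among neighbours at −0.36, Prc1 at −0.28, and Ttk and Nuf2 at −0.27 each. Of the 20 neighbours of Nuf2, 8 were lower and 0 higher. Ccnb2 was higher by 0.88 although its neighbours stood at −0.43, and Aurkb was higher by 0.99 among neighbours of which 16 of 20 were higher. By whole chromosome, genes on chromosome 1 had a median of −0.49, with 71.7% lower and 5.66% higher in knockout. The 3 mitotic genes there were Nek2, Cenpf and Nuf2, of which 0 were higher. On chromosome 9, at a median of −0.23, 2 of 6 mitotic genes were higher, and on chromosome 5, at −0.08, 0 of 2. Of all genes tested, 13.2% were higher on chromosome 9 and 16.4% on chromosome 5. Other chromosomes with a median below 0 held 1 of 1 higher on chromosome 13 (−0.29), 1 of 2 on chromosome 18 (−0.22), 2 of 2 on chromosome 15 (−0.12), 4 of 5 on chromosome 7 (−0.08), 0 of 1 on chromosome 17 (−0.02) and 1 of 1 on chromosome X (−0.01). On chromosomes 2 and 11, at medians of 0.19 and 0.20, 8 of 9 and 6 of 6 were higher. Of all genes tested, 45.7% were higher on chromosome 2 and 45.4% on chromosome 11. That share was 13.1% on chromosome 13, 19.8% on chromosome 15 and 23.6% on chromosome 7. It was 26.5% on chromosome 17, 24.5% on chromosome X and under 13.1% on chromosome 18. The part of these regional shifts in the results of single genes was not tested.

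**Figure D5:**
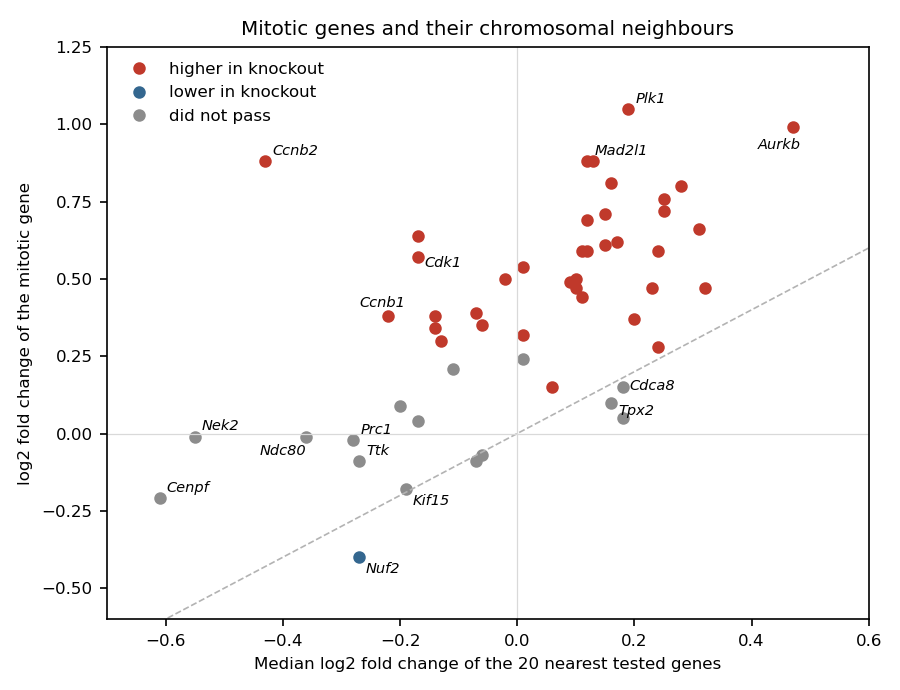
Log2 fold change of each mitotic gene (y axis) against the median log2 fold change of its 20 nearest tested neighbours (x axis), with genes coloured by their call and the dashed line marking equal values. Most points lie above the line; at the left, with neighbour medians from −0.61 to −0.27, lie Cenpf, Nek2, Ccnb2, Ndc80, Prc1, Ttk and Nuf2, of which Ccnb2 was higher, Nuf2 lower and the other 5 did not pass.

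Other genes of the cell cycle were counted in 9 lists, beside a background of 30.5% higher and 29.2% lower among all genes tested. In all, 76 genes of these lists were higher and 28 lower, where 3646 of all genes tested were higher and 3490 lower. Without knockout replicate 2, 84 genes of the lists were higher and 40 lower. In that setting 4350 of all genes tested (36.0%) were higher and 4236 (35.1%) lower. The list of 29 other spindle and cytokinesis genes had 17 higher (58.6%) and 2 lower (6.9%) at a median log2 fold change of 0.21. Dlgap5, a spindle protein that stabilises kinetochore fibres, rose most, by 1.04 ± 0.096 (SE), and Pbk, a mitotic kinase, fell by 0.49 ± 0.082. DNA replication genes counted 22 higher (66.7%) and 3 lower (9.09%) of 33, at a median of 0.37. Without knockout replicate 2 they counted 21 higher and 5 lower, at a median of 0.29. Gins2, of the replicative helicase, rose by 1.40 ± 0.12 and the helicase gene Mcm3 fell by 0.60 ± 0.059.

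The next 3 lists had shares of higher genes nearer to the background. The anaphase-promoting complex and its partners counted 7 higher (41.2%) and 2 lower (11.8%) of 17, at a median of 0.11. Without knockout replicate 2 that list counted 8 higher and 4 lower, at a median of 0.06. Its called genes ran from Fzr1, the activator CDH1, at 0.71 ± 0.070, to the subunit gene Anapc16 at −0.49 ± 0.083. Inner kinetochore genes counted 8 higher (42.1%) and 4 lower (21.1%) of 19 (median 0.19), from Cenpw at 0.61 ± 0.14 to Hjurp, the chaperone of CENP-A, at −0.59 ± 0.059. Outer kinetochore genes counted 4 higher and 4 lower of 16, or 25% each way (median −0.03), from Spdl1, a dynein adaptor at kinetochores, at 0.59 ± 0.091 to Kntc1, a subunit of the RZZ complex, at −0.71 ± 0.099.

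Cohesin genes counted 3 higher (23.1%) and 5 lower (38.5%) of 13, near the background (median −0.08), from Wapl, which releases cohesin, at 0.85 ± 0.081 to Pds5a, its partner, at −0.54 ± 0.086. Of 3 genes of condensin II, Ncaph2 rose by 0.26 ± 0.066 and the others did not pass (1 of them was lower without knockout replicate 2). Mitotic entry control counted 4 higher (33.3%) and 2 lower (16.7%) of 12 (median 0.10; 6 and 3 at a median of 0.07 without knockout replicate 2), with Ccnf, the cyclin F gene, rising by 0.92 ± 0.067 and Ppp2r2a, a phosphatase subunit gene, falling by 0.43 ± 0.066. The regulators MuvB, E2F, RB and NF-Y counted 10 higher (45.5%) and 6 lower (27.3%) of 22 tested (median 0.05). E2f1, an activator of S phase genes, rose by 0.85 ± 0.074, to 62.6 ± 4.76 CPM in knockout against 34.6 ± 1.64 CPM in wild type (SD, n = 3 each), and Mybl1, a relative of B-MYB, fell by 0.66 ± 0.14. Named after their values were seen, Mybl2, the B-MYB gene, rose by 0.42 ± 0.097, and the genes of the MuvB core went different ways. Lin9 fell by 0.48 ± 0.11 and Rbbp4 rose by 0.26 ± 0.066, while Lin37 (0.03), Lin52 (0.07) and Lin54 (−0.06) did not pass. Of the RB genes, also named after their values were seen, Rbl2 rose by 0.30 ± 0.071, while Rb1 fell by 0.51 ± 0.11 and Rbl1 by 0.32 ± 0.088. The other tested E2F genes, with Tfdp1 and Tfdp2, were named after their values were seen as well. E2f2 rose by 0.60 ± 0.10, E2f4 by 0.32 ± 0.059 and E2f5 by 0.27 ± 0.070. E2f7 rose by 0.33 ± 0.11 and E2f8 by 0.31 ± 0.069, while E2f3 fell by 0.35 ± 0.086. Tfdp1 rose by 0.56 ± 0.056 and Tfdp2 fell by 0.45 ± 0.074.

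Exons of 14 mitotic genes overlap a gene on the other strand in the GENCODE M21 annotation (GRCm38). For 10 of them that partner is in the count table, among them Exosc9 for Ccna2, Elovl1 for Cdc20 and Cdc23 for Kif20a. Exons of 3 mitotic genes, Top2a, Ncapd2 and Foxm1, overlap another gene on the same strand. For 1 of these, Foxm1, that gene (Tex52) is in the count table. Ccnb1, Ccnb2, Kif4 and Kif22 have pseudogene copies named after them, and how reads matching both were counted is unknown, so these values are uncertain to that extent. The copy Ccnb1-ps had 7, 8 and 18 counts in knockout replicates 1, 2 and 3 and 8, 2 and 10 counts in wild-type replicates 1, 2 and 3.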

How the data were processed

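RNA of 6 serum-starved NIH3T3 samples was sequenced, 3 of each genotype, grouped and numbered by title. Per the labels, libraries were made with a stranded mRNA kit (TruSeq). The authors deposited raw read counts per gene. They also deposited FPKM values for the same genes, which equal count over total and a fixed gene length within 8.04e-05%. The submitters' processing notes name build GRCm39 and the tools Cufflinks, DESeq, HISAT2, HTSeq and Trimmomatic. Versions, settings and annotation are not given there.

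Genes with low counts were removed with filterByExpr, leaving 11972 genes that hold at least 99.9% of counts. Knockout was compared with wild type by the quasi-likelihood method of edgeR 4.0.16 (R 4.3.3) after TMM scaling, tested on simulated data beforehand. The biological coefficient of variation was 7.76%. CPM uses the TMM-scaled total. The SE is the log2 fold change over the square root of the F statistic. Levels between genes use FPKM. Alternatives used limma 3.58.1 and DESeq2 1.42.0, other scalings and filters, FPKM as log2 of the value plus 1 or 0.1, a replicate block, each replicate left out and, chosen after seeing the data, an offset for gene length.

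The mitotic genes and the other lists were chosen with earlier results of these data known, so lists are described by counts and medians without a list test. Mitotic genes given by library are the highest and lowest fold change of each function, every gene that was lower or did not pass, and Pttg1. Of the other lists, the highest rise and deepest fall are given as log2 fold changes, with some genes named after their values were seen. The RefSeq and GENCODE tables follow GRCm38 and served for names, neighbours, overlaps and promoter sequences.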

Additional observations from a re-analysis of the deposited data

How the results depend on the processing

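Over 15 alternative settings and an offset for gene length, the number of mitotic genes called higher stayed between 35 and 39 and the number called lower between 1 and 2. Of all genes tested in each of these settings, 3024 to 4350 were called higher and 3023 to 4236 lower. Leaving out each replicate in turn gave 1 to 2 lower genes (2 without knockout replicate 1 or 2), 1 to 2 genes at 2-fold or more (2 without knockout replicate 1 or 3 or wild-type replicate 3), and a median log2 fold change from 0.391 to 0.425, against 0.436 with all libraries. The length offset, chosen after seeing the data, gave 0 genes at 2-fold, with Plk1 at 0.96, and otherwise 37 higher and 1 lower. With that offset 4044 of all genes tested were higher and 3999 lower, against 3646 and 3490 without it. Of the 38 called genes, 36 kept their call in each of the 15 settings. Smc4 lost its call in 10 of them and Kif18a in 5 (DESeq2 and without knockout replicates 1 or 3 or wild-type replicates 1 or 2). Of the genes not called, Cenpa, Cenpf and Ect2 passed when a knockout library was left out. None of them passed with the length offset. Same-numbered libraries of the genotypes did not deviate together (correlations of −0.099, −0.121 and 0.016). These values cannot decide whether the numbers pair the libraries, as each group has 3 libraries and knockout replicate 2 stood apart from its group. With a replicate block 36 mitotic genes were higher and 1 lower, and the median was 0.435. The median log2 fold change of all genes was −0.0083 with RLE size factors and 0.014 with library totals alone, against 0.003 with TMM scaling. Each mitotic gene had at least 133 counts in every library.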
